A study of Mus musculus with 8 samples.

Results

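Irs1, Irs2, Pik3ca, Pik3r1, Pik3ip1, Foxo1 and Foxo3 are genes of the route from the insulin receptor substrates through phosphoinositide 3-kinase (PI3K) to the FOXO transcription factors. They were taken by symbol from the table of raw counts, which lists 50600 genes. All 7 were found, and all 7 passed the filter on low counts (10 or more counts in 2 or more libraries), as did 14497 genes in all. Their levels were compared in murine malignant peripheral nerve sheath tumor (MPNST) cells with and without a p53 guide, each given DMSO as vehicle or capmatinib, an inhibitor of the MET kinase.

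The cells came from a mouse tumor model, NF1-MET, whose genotype was Nf1 fl/ko; lox-stop-lox-MET tg/+; Plp-creERT tg/+, so that Nf1 loss and the MET transgene were driven by Cre in cells using the Plp promoter. Amplified Met and a deletion of Cdkn2a, which the study describes for NF1-MET, were in the line from which the p53-guide line was made. The NF1-MET;sgP53 cells had this background and carried a CRISPR guide against Trp53 from a lentiviral vector. The study also made NF1-MET cells with the empty vector, and the labels do not say whether the NF1-MET libraries came from them, although their column names carry EV. Cells of both lines were kept for 24 h in DMSO or in capmatinib at 100 nM. The 4 groups of line and treatment had 2 replicates each, giving 8 libraries. For the sequencing, the study describes cells on a multi-well plate, treated in duplicate. It does not say whether the duplicates came from separate experiments, so the p-values may not cover the spread between experiments. Each genotype was 1 line, so loss of p53 and any other difference between the lines cannot be told apart, and p-values measured the spread between the replicates of these lines only.

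Insulin receptor substrates are adaptors that, once phosphorylated by the insulin or IGF1 receptor, recruit PI3K through its regulatory subunit, and PI3K then makes the lipid that activates AKT. AKT phosphorylates FOXO factors and keeps them out of the nucleus. When AKT activity is low, FOXO factors enter the nucleus and are known to induce genes of the same route, Irs2 and the insulin receptor gene among them, a feedback described in many tumor cells given kinase inhibitors.

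The libraries held between 30.1 M and 42.8 M counts, and a member's count ranged from 142 for Pik3ip1 to 6209 for Pik3r1. Levels are given as CPM, a gene's counts over a library's total put on a common scale, after TMM scaling, which assumes that most genes do not change between libraries. In such bulk libraries, fewer cells of a type and less RNA per cell cannot be told apart. Trp53, the gene targeted by the guide, was at 182.2 and 193.1 CPM in NF1-MET vehicle, 125.6 and 128.5 in NF1-MET capmatinib, and in NF1-MET;sgP53 at 97.5 and 100.1 in vehicle and 68.0 and 68.8 in capmatinib. Both sgP53 groups were below the NF1-MET group given the same treatment. The Schwann cell markers Sox10, Ngfr and Gfap were at or near 0 in every library, at most 0.217 CPM, while Twist1 reached 46.2 and Nes 472.6 CPM. Leukocyte markers summed to at most 2.12 CPM and endothelial, epithelial and muscle markers each to at most 0.358 CPM. Gm42418, a row known to collect ribosomal RNA reads, took between 1.11% and 13.1% of a library's counts, with 10.0% and 1.11% in the 2 NF1-MET;sgP53 capmatinib replicates. With this and 4 other abundant RNAs left out, members' calls changed for the interaction of line and treatment alone, where Irs2 lost its call and Pik3ca gained one (0.13, adjusted p = 0.0377, edgeR's quasi-likelihood test).

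The promoters of the adaptor genes are shown because Irs1 and Irs2 were the only members whose windows held an E-box or an insulin response core, a motif known from insulin-regulated promoters. The windows are 300 bases around the RefSeq start (GRCm38.p6), most of them upstream, and capitals mark the E-box CACGTG and the insulin response core CAAAACA, read on either strand. The Irs1 window is chr1:82291390-82291689 and the Irs2 window is chr8:11008880-11009179, both on the minus strand and printed 5′ to 3′ along the gene.
Irs1: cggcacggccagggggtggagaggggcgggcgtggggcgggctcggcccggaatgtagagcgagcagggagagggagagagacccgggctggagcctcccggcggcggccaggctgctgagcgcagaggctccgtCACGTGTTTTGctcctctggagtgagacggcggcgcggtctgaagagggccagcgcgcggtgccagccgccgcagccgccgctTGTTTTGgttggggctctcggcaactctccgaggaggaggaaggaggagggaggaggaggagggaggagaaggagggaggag
Irs2: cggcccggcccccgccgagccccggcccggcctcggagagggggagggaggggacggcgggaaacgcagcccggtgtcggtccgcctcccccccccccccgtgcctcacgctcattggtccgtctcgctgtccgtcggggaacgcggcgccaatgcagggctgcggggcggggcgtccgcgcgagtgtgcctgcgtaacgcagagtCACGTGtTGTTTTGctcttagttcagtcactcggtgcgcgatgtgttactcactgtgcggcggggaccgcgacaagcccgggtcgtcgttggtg
In Irs1, the E-box lay 115 to 110 bases before the start and overlapped a core on the reverse strand at 111 to 105 bases, and a second core lay at 32 to 26 bases. In Irs2, the E-box lay 44 to 39 bases before the start and the core, again on the reverse strand, at 37 to 31 bases. Of 32851 promoter windows, 7.15% held the E-box, 6.28% held the core and 0.408% held both. The FOXO core GTAAACA, on either strand, was in 3.65% of all windows and in none of the members', which says only that these letters are not in those 300 bases. The GC box GGGCGG, not capitalised, was in 35.7% of all windows and in at least 1 window of each member but Pik3ip1. Pik3r1 alone of the members has 2 windows, and its second, chr13:101692581-101692880, held none of the motifs searched. The Irs2 and Pik3ca windows lie upstream of the gene starts in the GENCODE annotation used for gene lengths, since RefSeq places those starts farther out. The Pik3ip1 window, chr11:3330481-3330780 on the plus strand, lies wholly downstream of its GENCODE start at 3330401. Motifs missing from it may lie near that other start, which was not searched in full.

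Pik3ca is shown for contrast, as the member that did not rise with capmatinib. Its window, chr3:32396815-32397114 on the plus strand, held no E-box and no insulin response core. The windows of Foxo1, Foxo3, Pik3r1 and Pik3ip1 held neither motif as well, and these genes rose with capmatinib in both lines. Among the members, lack of these motifs thus did not go with lack of a rise. Capitals mark the AP-1 motif TGANTCA, 97 to 91 bases before the start, and a p53 half-site at 82 to 73 bases.
Pik3ca: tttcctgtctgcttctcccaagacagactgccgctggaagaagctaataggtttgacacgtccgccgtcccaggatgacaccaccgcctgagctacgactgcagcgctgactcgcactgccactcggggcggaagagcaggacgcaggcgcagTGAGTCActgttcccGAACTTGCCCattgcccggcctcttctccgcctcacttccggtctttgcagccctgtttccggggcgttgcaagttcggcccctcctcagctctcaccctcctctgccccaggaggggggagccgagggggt
These motifs were in 7.81% and 8.36% of all windows. A match is a description of the letters and no evidence of binding.

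In NF1-MET cells, capmatinib raised 6 of the 7 genes and lowered Pik3ca. Pik3ip1 rose 2.81-fold and Foxo3 2.05-fold, Irs2, Foxo1, Irs1 and Pik3r1 rose between 1.36-fold and 1.54-fold, and Pik3ca fell to 0.915 of its vehicle level. Of all genes tested in this comparison, 70.2% were called (adjusted p under 0.05, edgeR's quasi-likelihood test), 35.5% higher and 34.7% lower, so a call by itself was common. In NF1-MET;sgP53 cells, the same 6 genes were called higher and Pik3ca was not called, against 67.6% of all genes called, 34.2% higher and 33.4% lower. Irs1 rose 1.07-fold there, and the difference in response between the lines was called for Irs1, Irs2 and Pik3r1, for Irs2 under 7 of 16 alternatives.

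**Figure D1:**
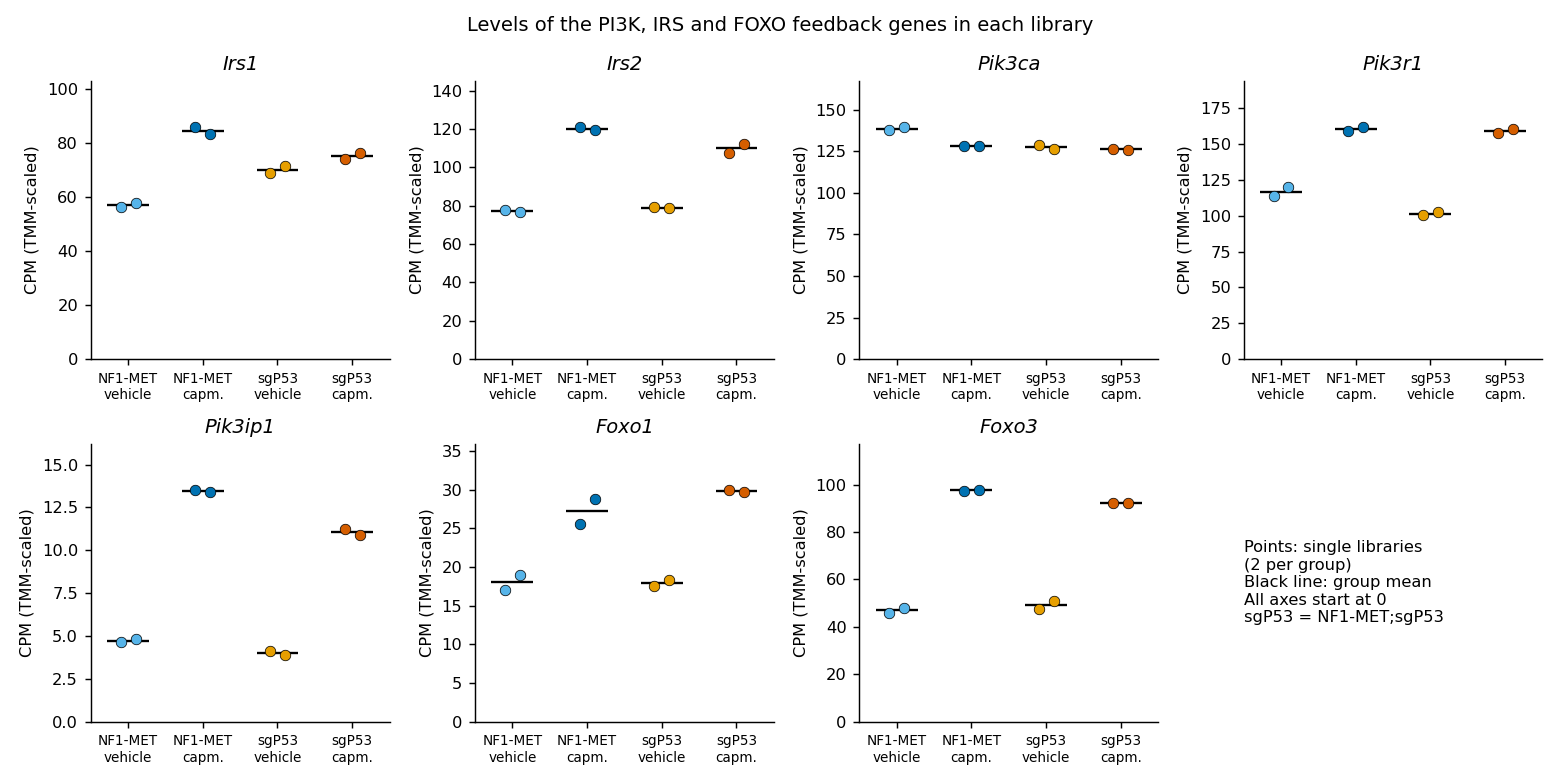
Level of each gene in each library, in CPM after TMM scaling (y axes, each starting at 0), for the 4 groups (x axis, with sgP53 standing for NF1-MET;sgP53 and capm. for capmatinib). Points are libraries and black lines are means of 2 libraries. All genes but Pik3ca are higher in both capmatinib groups than in both vehicle groups, with Irs1 closest in the NF1-MET;sgP53 line, and Pik3ca stays between 125.8 and 139.5 CPM.

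Irs1 (chr1:82233101-82291416 in mm10, minus strand) encodes insulin receptor substrate 1, an adaptor of the insulin and IGF1 receptors. It was at 56.2 and 57.6 CPM in NF1-MET vehicle, 85.8 and 83.3 in NF1-MET capmatinib, and in NF1-MET;sgP53 at 68.8 and 71.4 in vehicle and 74.2 and 76.1 in capmatinib. The 4 groups, of 2 libraries each, did not overlap, and both sgP53 groups lay between the NF1-MET groups. With capmatinib, the log2 level of Irs1 rose by 0.55 (SE 0.0354, adjusted p = 3.43e-15, edgeR's quasi-likelihood test) in NF1-MET and by 0.10 (SE 0.0338, adjusted p = 0.0125) in NF1-MET;sgP53. The latter call was lost without vehicle replicate 1 of that line (0.07, adjusted p = 0.0947), with DESeq2 (0.09, adjusted p = 0.148) and with no filter on low counts (0.08, adjusted p = 0.0857), and with scaling to library totals, which set the median gene at -0.12, the value was -0.02.

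The line difference in Irs1 turned with the treatment under TMM scaling. In vehicle, Irs1 was higher in NF1-MET;sgP53 by 0.28 (SE 0.0353, adjusted p = 4.21e-06), and in capmatinib it was lower by 0.17 (log2 fold change -0.17, SE 0.0321, adjusted p = 0.00166, edgeR's quasi-likelihood test). With library totals the capmatinib difference was -0.05 and not called (adjusted p = 0.781). The response with the p53 guide minus that without it, the interaction, was -0.47 (SE 0.0467, adjusted p = 1.34e-07, edgeR's quasi-likelihood test). Both NF1-MET capmatinib libraries were above, and both NF1-MET vehicle libraries below, all 4 libraries of the p53-guide line. Opposite-strand exons of Gm9747 cover 30.86% of the exon bases of Irs1, but that gene had at most 4 counts in any library.

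Irs2 (chr8:10984681-11008458, minus strand) encodes insulin receptor substrate 2, the second widely used adaptor of these receptors. It was at 77.5 and 76.6 CPM in NF1-MET vehicle, 120.8 and 119.3 in NF1-MET capmatinib, and in NF1-MET;sgP53 at 79.3 and 78.7 in vehicle and 107.6 and 112.3 in capmatinib. Both capmatinib groups were far above both vehicle groups, and the highest values were in NF1-MET. The rise was 0.62 (SE 0.0299, adjusted p = 1.75e-18) in NF1-MET and 0.48 (SE 0.0358, adjusted p = 7.14e-11) in NF1-MET;sgP53. The interaction of -0.16 (SE 0.0452) passed with an adjusted p of 0.0215 in edgeR's quasi-likelihood test, but the call was lost with library totals (-0.08, adjusted p = 0.893), with DESeq2 (-0.15, adjusted p = 0.14), with no filter on low counts (-0.14, adjusted p = 0.0768), without Gm42418 and similar RNAs (-0.13, adjusted p = 0.0728) and without NF1-MET vehicle replicate 1 or 2, NF1-MET capmatinib replicate 1, or replicate 1 of either NF1-MET;sgP53 group (adjusted p between 0.0515 and 0.0968).

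Per kilobase of exon, Irs2 was the more abundant adaptor in every group. In NF1-MET vehicle the level of Irs1 was 6.22 ± 0.11 CPM per kb and that of Irs2 12.2 ± 0.106 (SD, n = 2). The ratio of Irs1 to Irs2 was 0.511 ± 0.0135 in NF1-MET vehicle, 0.487 ± 0.00611 in NF1-MET capmatinib, 0.614 ± 0.0197 in NF1-MET;sgP53 vehicle and 0.473 ± 0.00600 in NF1-MET;sgP53 capmatinib (SD, n = 2 each). A ratio within a library does not depend on its scaling, and the ratio in NF1-MET;sgP53 vehicle stood above those of the other 3 groups. The sum of both adaptors went from 18.4 to 28.2 CPM per kb with capmatinib in NF1-MET and from 20.2 to 25.6 in NF1-MET;sgP53.

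Pik3ca (chr3:32397671-32468486, plus strand) encodes the catalytic subunit p110-alpha. It was at 137.9 and 139.5 CPM in NF1-MET vehicle, 128.5 and 128.3 in NF1-MET capmatinib, and in NF1-MET;sgP53 at 129.1 and 126.5 in vehicle and 126.7 and 125.8 in capmatinib. NF1-MET vehicle stood above the other 3 groups, which lay between 125.8 and 129.1 CPM. Capmatinib lowered Pik3ca in NF1-MET (-0.13, SE 0.0283, adjusted p = 0.000183, edgeR's quasi-likelihood test), whereas in NF1-MET;sgP53 the difference was -0.02 with a 95% interval of -0.08 to 0.05 (adjusted p = 0.665). The difference between these responses was 0.09 (95% interval 0.01 to 0.18) and did not pass with an adjusted p of 0.188.

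Pik3r1 (chr13:101680563-101768217, minus strand) encodes p85-alpha, the regulatory subunit that binds phosphorylated adaptors and both stabilises and restrains the catalytic subunit. It was at 113.5 and 120.0 CPM in NF1-MET vehicle, 158.8 and 161.6 in NF1-MET capmatinib, and in NF1-MET;sgP53 at 100.2 and 102.4 in vehicle and 157.9 and 160.2 in capmatinib. The vehicle groups were apart, with the p53-guide line the lower, and the capmatinib groups overlapped. Capmatinib raised Pik3r1 by 0.44 (SE 0.0301, adjusted p = 1.72e-14) in NF1-MET and by 0.65 (SE 0.0339, adjusted p = 1.22e-13) in NF1-MET;sgP53. The interaction was 0.19 (SE 0.0455, adjusted p = 0.00613, edgeR's quasi-likelihood test), and it was not called without NF1-MET vehicle replicate 2, the higher of that pair (0.15, adjusted p = 0.071), or with library totals (0.27, adjusted p = 0.246).

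The ratio of Pik3r1 to Pik3ca, both per kilobase of exon, rose with capmatinib. Exon lengths are those of all annotated exons of a gene merged, and the counts cover all transcripts of a gene. Whether the ratio lies below or above 1 therefore depends on the annotation and shows no excess of either subunit. It was 0.759 ± 0.0238 in NF1-MET vehicle and 1.13 ± 0.0148 in NF1-MET capmatinib, and 0.715 ± 0.0216 and 1.14 ± 0.0177 in the matching NF1-MET;sgP53 groups (SD, n = 2 each). The treated and untreated libraries did not overlap in either line.

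**Figure D2:**
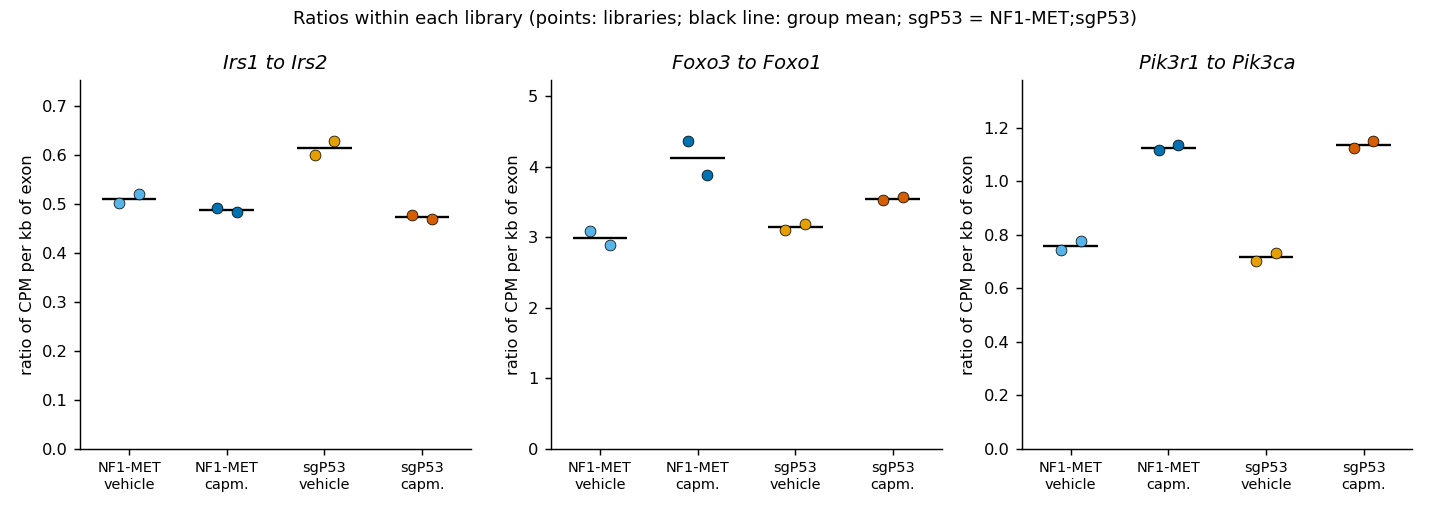
Ratio of the levels of pairs of genes per kilobase of exon in each library (y axes, starting at 0, no unit) for the 4 groups (x axis). Points are libraries and black lines are means of 2 libraries. Irs1 to Irs2 is highest in NF1-MET;sgP53 vehicle (0.614), and Pik3r1 to Pik3ca is higher in every capmatinib library than in every vehicle library.

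Pik3ip1 (chr11:3330401-3342971, plus strand) encodes a membrane protein that binds the catalytic subunit and inhibits PI3K. It had the lowest counts of the 7 genes, at 4.63 and 4.84 CPM in NF1-MET vehicle, 13.5 and 13.4 in NF1-MET capmatinib, and in NF1-MET;sgP53 at 4.13 and 3.91 in vehicle and 11.2 and 10.9 in capmatinib. All capmatinib libraries were more than 10.9 CPM and all vehicle libraries less than 4.84 CPM. The rise was 1.49 (SE 0.0955, adjusted p = 3.51e-15) in NF1-MET and 1.46 (SE 0.0999, adjusted p = 1.40e-11) in NF1-MET;sgP53 by edgeR's quasi-likelihood test, and 93.1% and 93.7% of all genes had a lower log2 fold change in the same comparison. The interaction was -0.04 with a 95% interval of -0.31 to 0.23 (adjusted p = 0.905), which leaves room for a difference of that size between the lines.

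Foxo1 (chr3:52268336-52353221, plus strand) and Foxo3 (chr10:42181841-42276755, minus strand) encode forkhead transcription factors that AKT inactivates. Foxo1 was at 17.0 and 19.0 CPM in NF1-MET vehicle, 25.6 and 28.8 in NF1-MET capmatinib, and in NF1-MET;sgP53 at 17.5 and 18.3 in vehicle and 29.9 and 29.6 in capmatinib. The vehicle groups overlapped and the capmatinib groups were above them, with NF1-MET;sgP53 the higher. Capmatinib raised Foxo1 by 0.59 (SE 0.0662, adjusted p = 2.29e-09) in NF1-MET and by 0.73 (SE 0.0585, adjusted p = 2.13e-10) in NF1-MET;sgP53, and the interaction of 0.13 (95% interval -0.05 to 0.31, adjusted p = 0.455, edgeR's quasi-likelihood test) did not pass.

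Foxo3 was at 46.0 and 48.0 CPM in NF1-MET vehicle, 97.5 and 97.7 in NF1-MET capmatinib, and in NF1-MET;sgP53 at 47.5 and 51.0 in vehicle and 92.1 and 92.3 in capmatinib. The vehicle groups overlapped, and in capmatinib the NF1-MET libraries were the higher. The rise was 1.04 (SE 0.0356, adjusted p = 2.20e-22) in NF1-MET and 0.90 (SE 0.0363, adjusted p = 1.26e-15) in NF1-MET;sgP53. The interaction of -0.15 (95% interval -0.25 to -0.05) had an adjusted p of 0.0572 in edgeR's quasi-likelihood test and was past the threshold without NF1-MET;sgP53 vehicle replicate 1 (-0.20, adjusted p = 0.0203) and with the replicate number as a block (-0.15, adjusted p = 0.0466).

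Per kilobase of exon, Foxo3 was between 2.99 and 4.12 times as abundant as Foxo1 in the group means. The ratio was 2.99 ± 0.143 in NF1-MET vehicle and 4.12 ± 0.339 in NF1-MET capmatinib, and 3.14 ± 0.0590 and 3.54 ± 0.0304 in the matching NF1-MET;sgP53 groups (SD, n = 2 each). The sum of both factors went from 8.28 to 16.0 CPM per kb in NF1-MET and from 8.57 to 15.6 in NF1-MET;sgP53. Foxo4, the other family member past the filter, rose by 0.30 (adjusted p = 4.44e-05, edgeR's quasi-likelihood test) in NF1-MET and by 0.35 (adjusted p = 3.64e-05) in NF1-MET;sgP53, and Foxo6 was not tested. With library totals, Foxo4 was called in neither line (0.11 and 0.22).

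Between the lines in vehicle, 3 of the 7 members were called, against 23.2% of all genes (10.9% were higher with the p53 guide and 12.3% lower). Irs1 was higher, as above, Pik3r1 was lower (-0.22, SE 0.0339, adjusted p = 4.42e-05) and Pik3ca was lower (-0.14, SE 0.0294, adjusted p = 0.00154, edgeR's quasi-likelihood test). Irs2, Foxo1 and Foxo3 differed by 0.02, -0.03 and 0.05, with 95% intervals of -0.04 to 0.08, -0.16 to 0.11 and -0.04 to 0.14. Pik3ip1 was at -0.26 with an interval of -0.50 to -0.02 and an adjusted p of 0.146, on counts of 142 to 193 per vehicle library, and did not pass. With library totals in place of TMM, Pik3r1 (-0.17) and Pik3ca (-0.08) were not called.

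Between the lines in capmatinib, Irs1, Irs2 and Pik3ip1 were lower in NF1-MET;sgP53, against 12.3% of all genes called, 5.94% higher and 6.34% lower. The differences were -0.17 for Irs1, -0.13 for Irs2 (SE 0.032, adjusted p = 0.0138) and -0.28 for Pik3ip1 (SE 0.0749, adjusted p = 0.0186, edgeR's quasi-likelihood test). Foxo1 was at 0.12 (adjusted p = 0.204), Foxo3 at -0.08 (0.0683 as its adjusted p), and Pik3r1 and Pik3ca at -0.01 and -0.02. None of the 3 calls held with library totals, where the median gene was at 0.11. With DESeq2, Irs2 (adjusted p = 0.0936) and Pik3ip1 (adjusted p = 0.231) were not called. The call for Irs2 was lost without NF1-MET capmatinib replicate 1 (adjusted p = 0.0627) or NF1-MET;sgP53 capmatinib replicate 1 (adjusted p = 0.106), and that for Pik3ip1 without any 1 of the 4 libraries (adjusted p between 0.0625 and 0.145). These line comparisons use the same libraries as the comparisons with capmatinib, so the values are not independent of those above. For the interaction, 9.71% of all genes were called, 3.85% higher and 5.86% lower, and Irs1, Irs2 and Pik3r1 were the members called.

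Ordered by their group means, Irs1, Irs2 and Pik3ip1 each had their highest level in NF1-MET capmatinib, followed by NF1-MET;sgP53 capmatinib, with no overlap of neighbouring groups. Groups of 2 libraries can fail to overlap without a difference by test. The share of all genes with such an order was not computed, so the order is only a description. Irs1 and Irs2 were lowest in NF1-MET vehicle and Pik3ip1 in NF1-MET;sgP53 vehicle. The vehicle groups of Irs2 and of Pik3ip1 did not differ by test although their libraries did not overlap. Foxo3 had the same order as Irs2, with overlapping vehicle groups. Foxo1 was highest in NF1-MET;sgP53 capmatinib, and its 2 capmatinib groups did not differ by test, nor did those of Foxo3 and Pik3r1. Pik3r1 was lowest in NF1-MET;sgP53 vehicle, and Pik3ca alone was highest in NF1-MET vehicle.

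The genes whose levels over the 8 libraries were most like those of each member were found by the root mean square difference of centred log2 CPM among 11777 genes, as a description of these libraries. They were Nek8 for Irs1 (0.0515), Atp6v0e for Irs2 (0.0243), Poldip3 for Pik3ca (0.0149), Ecm1 for Pik3r1 (0.0374), Dnajb5 for Foxo1 (0.0384) and Arhgef19 for Foxo3 (0.0292). For Pik3ip1 it was 2010111I01Rik (0.0776).

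Among the other receptors and adaptors of the insulin and IGF route, 18 were tested. In NF1-MET, 10 (55.6%) were higher and 6 (33.3%) lower with capmatinib, against 35.5% and 34.7% of all genes, with a median log2 fold change of 0.14 against 0.00 over all genes. In the p53-guide line 9 (50%) were higher and 5 (27.8%) lower, against 34.2% and 33.4% of all genes, with a median of 0.18. Library totals gave 8 higher and 8 lower in NF1-MET, 8 and 5 with the p53 guide, and medians of -0.04 and 0.06 against -0.18 and -0.12 over all genes. With that scaling, 24.2% of all genes were called higher and 44% lower in NF1-MET, against 22.5% and 34% with the p53 guide. Paired values below are for NF1-MET and then NF1-MET;sgP53. Gab1, a docking protein of MET itself, rose from 20.3 to 45.1 CPM in NF1-MET (1.14, adjusted p = 5.66e-19, edgeR's quasi-likelihood test) and by 1.19 in NF1-MET;sgP53. Socs3, which inhibits cytokine and insulin receptors, rose by 0.65 and 1.13, and its response was the larger in NF1-MET;sgP53 (interaction 0.47, adjusted p = 2.90e-05). Sh2b3, an adaptor that restrains cytokine receptors, fell (-0.88 and -1.11). Insr, the insulin receptor, fell in NF1-MET (-0.36, adjusted p = 1.37e-10) and was at 0.04 in NF1-MET;sgP53 (adjusted p = 0.361), with an interaction of 0.38 (adjusted p = 1.09e-05). Insr was at 83.5, 65.6, 61.9 and 63.6 CPM on average in NF1-MET vehicle, NF1-MET capmatinib and the matching NF1-MET;sgP53 groups, so NF1-MET vehicle alone was high.

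Of 9 other PI3K subunits, 5 (55.6%) were higher and 2 (22.2%) lower in NF1-MET, against 35.5% and 34.7% of all genes, and 6 (66.7%) higher and 1 (11.1%) lower in NF1-MET;sgP53, against 34.2% and 33.4%. The medians were 0.36 and 0.32 (0.18 and 0.19 with library totals, which called 5 higher and 2 lower, and 4 higher and 1 lower, against all-gene medians of -0.18 and -0.12). The class II catalytic subunit genes Pik3c2b (1.29 and 1.08) and Pik3c2a (0.65 and 0.61) rose, as did Pik3cd, which encodes p110-delta and was at 3.34 CPM in NF1-MET vehicle (0.89 and 0.65). Pik3r3, a regulatory subunit gene like Pik3r1, rose by 0.50 and by 0.78 (adjusted p = 1.82e-05 and 1.46e-07). Pik3r5, a regulatory subunit of the p110-gamma enzyme, fell (-0.69 and -1.10). Pik3cd was also higher in NF1-MET;sgP53 in both vehicle (0.68, adjusted p = 0.000365) and capmatinib (0.44, adjusted p = 0.0051), all by edgeR's quasi-likelihood test, and the latter call was lost with DESeq2 (adjusted p = 0.0829).

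Of 18 other inhibitors of PI3K and AKT signalling, 11 (61.1%) were higher and 4 (22.2%) lower in NF1-MET, against 35.5% and 34.7% of all genes, and 8 (44.4%) higher and 5 (27.8%) lower in NF1-MET;sgP53, against 34.2% and 33.4%. The medians were 0.17 and 0.09. Library totals put the medians at -0.01 and -0.03 and called 6 (33.3%) higher and 5 (27.8%) lower in NF1-MET, where all genes had a median of -0.18 with 24.2% higher and 44% lower. With the p53 guide the counts were 8 (44.4%) and 5 (27.8%), where all genes had a median of -0.12 with 22.5% higher and 34% lower. Trib3, a pseudokinase that binds AKT, rose by 2.52 and 2.24, and Trib1, a related pseudokinase, fell (-1.04 and -0.97). Phlda3, a competitor of AKT for the lipid and a known p53 target, was lower in NF1-MET;sgP53 in vehicle (-0.47) and capmatinib (-0.65, adjusted p = 4.55e-09, edgeR's quasi-likelihood test).

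Of 24 genes of AKT, mTOR complexes and their kinases, 9 (37.5%) were higher and 8 (33.3%) lower in NF1-MET, close to the 35.5% and 34.7% of all genes, and 6 (25%) higher and 8 (33.3%) lower in NF1-MET;sgP53, against 34.2% and 33.4%. The medians were 0.04 and -0.05. Library totals put the medians at -0.15 and -0.17 and called 3 (12.5%) higher and 13 (54.2%) lower in NF1-MET, where all genes had a median of -0.18 with 24.2% higher and 44% lower. With the p53 guide the counts were 1 (4.17%) and 7 (29.2%), where all genes had a median of -0.12 with 22.5% higher and 34% lower. Rptor, the scaffold of mTORC1, fell (-0.55 and -0.42), and Eif4ebp2, which encodes a translation repressor inactivated by mTORC1, fell (-0.61 and -0.66). Mapkap1, an mTORC2 subunit, rose by 0.33 and 0.15, and Rictor, the scaffold of mTORC2, rose by 0.28 and 0.25 (adjusted p = 6.57e-10 and 2.05e-06, edgeR's quasi-likelihood test). With library totals, Rictor was called in neither line (0.09 and 0.12), and Mapkap1 was at 0.14 and, not called, at 0.03.

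Of 35 other genes known as induced by FOXO factors, 26 (74.3%) were higher and 5 (14.3%) lower with capmatinib in NF1-MET, against 35.5% and 34.7% of all genes. In NF1-MET;sgP53 the counts were again 26 and 5, against 34.2% and 33.4% of all genes. The medians were 0.52 and 0.63, where the medians of all genes were 0.00. With library totals in place of TMM, 21 (60%) were higher in each line, against 24.2% and 22.5% of all genes, and 7 (20%) and 5 (14.3%) were lower, against 44% and 34%. The medians were then 0.33 and 0.51, against -0.18 and -0.12 over all genes. Txnip, an inhibitor of thioredoxin and of glucose uptake, rose by 4.14 in NF1-MET (4.01 to 71.3 CPM, adjusted p = 3.03e-31, edgeR's quasi-likelihood test) and by 3.38 in NF1-MET;sgP53 (7.51 to 78.6 CPM). Selenop, a selenium transport protein, rose by 2.56 and 2.37, Fbxo32, a ubiquitin ligase of muscle wasting, by 2.25 and 2.28, and Ddit4, an inhibitor of mTORC1, by 2.09 and 2.38. Bcl6, a transcriptional repressor, fell (-0.87 and -0.33), and so did Klf4, a zinc finger factor (-0.81 and -0.69). Many genes of this list are also known to be induced by other stress regulators, p53 among them.

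**Figure D3:**
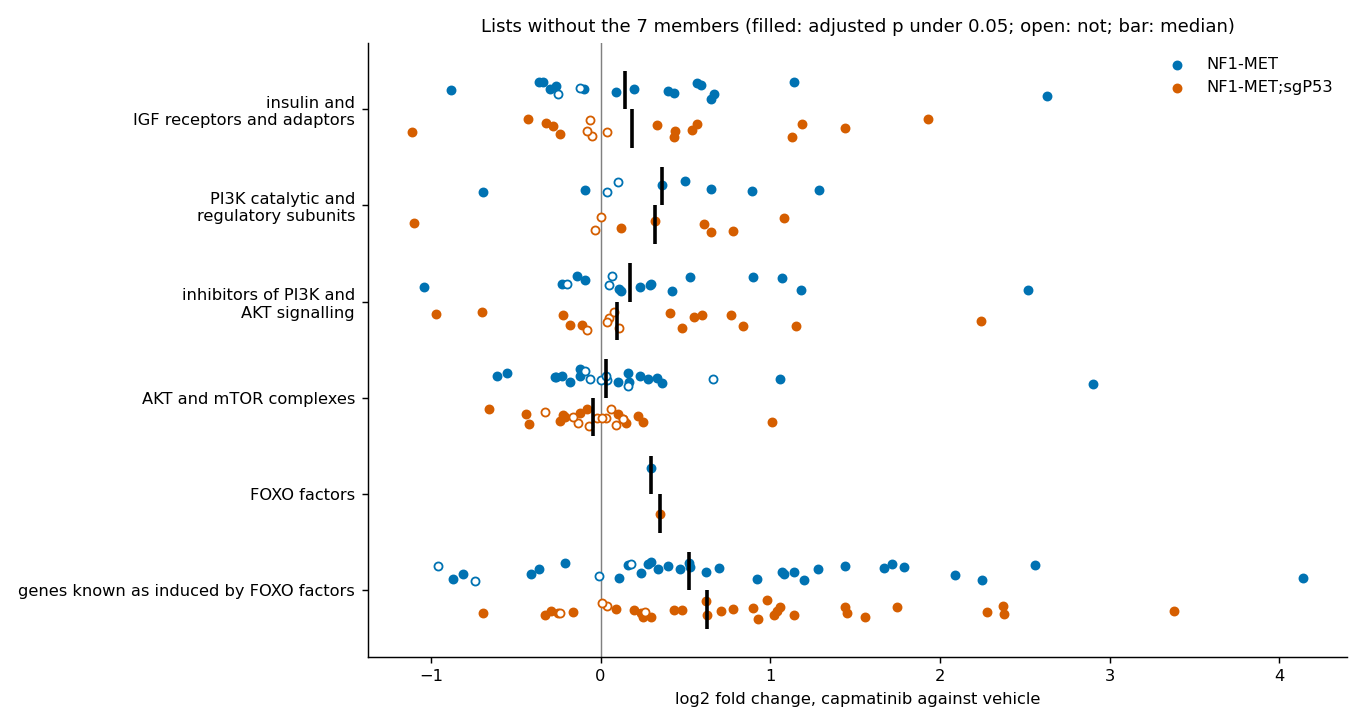
Log2 fold change with capmatinib (x axis) of the genes of 6 lists without the 7 members (y axis), in NF1-MET (blue) and NF1-MET;sgP53 (orange). Points are genes, filled where the adjusted p was under 0.05, and black bars are list medians. The genes known as induced by FOXO factors have medians of 0.52 and 0.63, and the low-level genes Irs3 (2.63) and Prr5l (2.90) stayed under 1 CPM.

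Between the lines in vehicle, 9 (25.7%) of the FOXO-induced genes were higher and 8 (22.9%) lower in NF1-MET;sgP53, against 10.9% and 12.3% of all genes, with a median of -0.07. The interaction called 6 (17.1%) higher and 7 (20%) lower, against 3.85% and 5.86% of all genes, with a median of -0.01 against -0.03 over all genes. The balance of directions depended on scaling, since with library totals 8 were called above and 4 below NF1-MET in vehicle (8.84% and 5.13% of all genes), and the interaction was positive for 4 called genes and negative for 1 (1.32% and 0.848% of all genes). Txnip was higher in NF1-MET;sgP53 in vehicle (0.89, adjusted p = 5.38e-06) and its response was the smaller there (interaction -0.77, adjusted p = 1.18e-05). Bcl6 had an interaction of 0.52 (adjusted p = 0.00349) and Ccng2, an atypical cyclin, of 0.42 (adjusted p = 0.00123, edgeR's quasi-likelihood test).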

How the data were processed

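The 8 libraries were poly(A) RNA-seq libraries. The deposited values are raw counts per gene, which the authors made by trimming reads with Trim Galore 0.4.2, mapping them to mm10 with STAR 2.5.2b and counting with STAR. The submitters' processing notes also name bcl2fastq 1.9.0 and FastQC 0.11.7. The annotation release and strand setting are not given in the sources used here, so overlapping genes on the opposite strand are stated.

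The filter of 10 or more counts in 2 or more libraries left 14497 genes, TMM factors were computed within each comparison, and genes were tested with edgeR 4.0.16's quasi-likelihood test (limma 3.58.1, R 4.3.3) with p-values adjusted over every gene tested (Benjamini-Hochberg) and called under 0.05. Each pair of groups was fitted on its 4 libraries and the interaction on 8. With 1 library left out, the remaining libraries of all 4 groups were fitted together, with TMM factors of their own. Those fits of a pair of groups thus differ from the main fit in more than the library removed. Intervals (95%) are 1.96 SE either side. The levels quoted are CPM from the TMM factors of all 8 libraries, and exon lengths came from GENCODE M21, with all annotated exons of a gene merged. Alternatives were DESeq2 1.42.0, other scalings and filters, a replicate block, 1 model of all libraries, removal of Gm42418, Rn7sk, Rpph1, Rmrp and CT010467.1, and leaving out each library. Replicate numbers in the labels were not taken as pairs: over all genes past the filter, deviations of same-numbered libraries correlated between -0.0536 and 0.102. A batch shared by only part of the genes was not tested. Between the lines, the replicate block called 3994 genes in vehicle, against 3355 without it, and 1777 in capmatinib, against 1778.

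The genes named are the 7 members, Trp53 as a check, up to 3 called genes in each direction per list and comparison with at least 1 CPM, and the genes most like each member. The text also names cell type markers, Gm9747 as overlapping Irs1, and Foxo6, Irs3, Prr5l and Gm42418, the last 4 after their values were seen. The members and lists were chosen with earlier results of these data known. Of 46 symbols in the FOXO-induced list, 44 were found. A few genes that this rule or the marker lists hold are not reported here. The test was tried on simulated counts first.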

Additional observations from a re-analysis of the deposited data

Results flagged for a closer look

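The response to capmatinib differed between the lines for 3 members, by the interaction of line and treatment in edgeR's quasi-likelihood test. For Irs1, the response in NF1-MET;sgP53 minus that in NF1-MET was -0.47 on the log2 scale (adjusted p = 1.34e-07). For Irs2 it was -0.16 (adjusted p = 0.0215). For Pik3r1 it was 0.19 (adjusted p = 0.00613). Of all genes, 9.71% were called in this test. Groups of 2 libraries were too small to look for single libraries far from the rest.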

How the results depend on the processing

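Of 476 values for the 7 members under the alternatives, 445 kept their side of the threshold, 27 lost the call and 3 gained one. The remaining 1 lost the call and changed sign, Irs1 with capmatinib in NF1-MET;sgP53 at -0.02 (SE 0.103) with library totals. Of the 445, 10 values that were not called changed sign: with library totals Foxo1 between the lines in vehicle (-0.03 to 0.03), Foxo3 (-0.08 to 0.03), Pik3r1 (-0.01 to 0.11) and Pik3ca (-0.02 to 0.09) between the lines in capmatinib, and Pik3ip1's interaction (-0.04 to 0.04), and 5 with 1 library left out, at 0.00 to 0.08. In capmatinib, with the same scaling, Rictor, called lower in NF1-MET;sgP53 with TMM, was at 0.00. All 7 members kept their call in every alternative for capmatinib in NF1-MET. In NF1-MET;sgP53, 6 of 7 did, the exception being Irs1. Irs1's interaction was called under every alternative, between -0.50 and -0.39, and Irs2's under 7 of 16.

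Genes called between the lines in vehicle were 3355, against 2023 with library totals and 1933 with DESeq2. In capmatinib they were 1778, against 666 and 870, and between 1079 and 1332 with 1 library left out. For the interaction they were 1407, against 315 and 894. Library totals gave calls of 3508 higher and 6381 lower for capmatinib in NF1-MET (5140 and 5029 with TMM), 3260 and 4933 in NF1-MET;sgP53 (4963 and 4841), 1280 and 743 between the lines in vehicle (1580 and 1775), 537 and 129 in capmatinib (860 and 918), and 192 and 123 for the interaction (558 and 849). The interaction gave 897 and 634 without Gm42418 and similar RNAs and 808 and 700 without a filter. One model of all libraries gave 2046 and 1533 between the lines in vehicle.

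Of the members, 0 were called lower between the lines in vehicle with library totals (1 at an unadjusted p under 0.05). In capmatinib 0 were called lower with library totals (0 unadjusted) and 1 with DESeq2 (3 unadjusted), and 1 to 2 with 1 library left out. For the interaction, 0 were called higher with library totals (1 unadjusted), 2 without Gm42418 and similar RNAs, and 0 to 1 with 1 library left out, the 0 being without NF1-MET vehicle replicate 2. Called lower were 1 with library totals, DESeq2, no filter or without those RNAs, and 1 to 2 with 1 library left out. The cause was not tested. The replicate block called Foxo3's interaction (-0.15, adjusted p = 0.0466) and changed no other call of a member. Leaving out a library assumes that the lone one varies like the other groups.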
